A study of Rattus norvegicus with 4 samples.

Results

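The 9 transcription factor genes examined here were grouped as factors of the formative epiblast, the state that pluripotent cells enter as they leave the naive state, and of the first neural progenitors. They are Otx2, Pou3f1, Zic2, Zic5, Sox3, Sox4, Sox11, Utf1 and Sall4, and were found by matching each name to the gene symbols of the 32753 genes. Utf1 and Sall4 are factors of pluripotent cells more broadly. Of the 9, 6 matched a row, and Pou3f1, Sox3 and Sox4 are not analysed here. Otx2, a homeodomain factor of the formative epiblast and anterior neural plate, was listed at 0 in all 4 libraries. An exact 0 cannot be read as absence in these tables, because Rpl8, Eif3h and Polr2h, each with a single row and used by every cell, were also listed at 0 in all 4 libraries. The measured factors are therefore Zic2, Zic5, Sox11, Utf1 and Sall4.

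RNA was sequenced from embryoid bodies, aggregates of differentiating pluripotent cells, that were grown from rat embryonic stem cells of strain DASD and collected on day 4. There were 2 Kcnh2-/- and 2 wild-type (WT) libraries. Kcnh2 encodes a voltage-gated potassium channel, and the labels do not say which part of the gene was altered, whether each genotype is 1 clone, or whether the replicates came from separate cultures, so p-values measure only the spread between these libraries. Both genotypes were aggregated in hanging drops with the GSK3 inhibitor given as CHIR9902, the MEK inhibitor PD0325901 and the ROCK inhibitor Y27632, then plated on laminin with the first and second of these, and left in a medium named DM for the last day.

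The values are RPKM, read numbers corrected for transcript length and for the mapped reads of the library, so levels of different genes are given per length. Kcnh2 itself was at 0.108 and 0.504 RPKM in Kcnh2-/- and at 2.61 and 1.45 RPKM in WT (difference in log2(RPKM + 1) -1.20 ± 0.43, SE, limma adjusted p = 0.980). Between 17610 and 17833 genes were above 0 in a library. The RPKM sums over all genes split by replicate number, at 1.09e+08 and 7.95e+07 in the replicate 1 libraries of Kcnh2-/- and WT and at 8.93e+06 and 1.17e+07 in the replicate 2 libraries. Over protein-coding genes alone they did not, with sums of 588033 and 865357 RPKM in Kcnh2-/- replicates 1 and 2 and 1017277 and 711900 RPKM in WT replicates 1 and 2, and medians of 2.11 and 2.15 RPKM in Kcnh2-/- and 2.59 and 2.46 RPKM in WT. The labels name no batch, but the genotype differences of the measured factors are given within each number as well as pooled. The genotypes also differed over chromosome X, where the median log2 ratio of protein-coding genes, centred on the autosomes, was 0.79 within replicate 1 and 0.72 within replicate 2. Loss of Kcnh2 and this difference between the lines cannot be told apart in the comparisons that follow. The pluripotency factor gene Pou5f1 was at 1043 and 1679 RPKM in Kcnh2-/- and at 273 and 1203 RPKM in WT, and Sox2, of the same core network, is given below. In bulk RNA, fewer cells of a type and less RNA per cell cannot be told apart.

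As background, the formative epiblast lies between naive pluripotency and the primed state from which the germ layers arise. OTX2, POU3F1 and ZIC2 act at enhancers that switch on in this transition, ZIC5 is a zinc finger factor encoded beside ZIC2, and SOX3 is a SOXB1 factor that keeps neural progenitors uncommitted. SOX4 and SOX11 are SOXC factors of neural and mesenchymal progenitors. UTF1 is a chromatin-associated factor of pluripotent cells, and SALL4 is a zinc finger factor that sustains pluripotency and is retained in early embryonic cells.

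Promoters of the measured factors are shown so that a reader can set their sequences side by side. Neighbouring Zic2 and Zic5 followed each other across libraries more closely than any other pair of the measured factors. Each was nearer still to a listed gene on another chromosome, as given below. The part of the promoter sequences in these levels was not tested. RefSeq promoters (assembly GRCr8, 250 bases before to 50 after the start site) matched 5 of the 9 genes, 4 of them measured. Each is printed 5′ to 3′ on the strand of its gene, with GC boxes (GGGCGG or CCGCCC) and CCAAT boxes (CCAAT or ATTGG) in capitals. The regions are chr15:105983092-105983391 on the + strand for Zic2, chr15:105973620-105973919 on the - strand for Zic5, chr6:49738745-49739044 on the - strand for Sox11 and chr1:204169704-204170003 on the + strand for Utf1.
Zic2: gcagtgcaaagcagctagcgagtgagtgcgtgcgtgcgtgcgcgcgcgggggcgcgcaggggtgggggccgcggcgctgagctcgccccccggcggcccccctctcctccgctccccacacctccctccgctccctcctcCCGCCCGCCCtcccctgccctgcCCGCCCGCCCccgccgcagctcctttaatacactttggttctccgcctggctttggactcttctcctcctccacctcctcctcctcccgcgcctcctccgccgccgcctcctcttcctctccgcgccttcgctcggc
Zic5: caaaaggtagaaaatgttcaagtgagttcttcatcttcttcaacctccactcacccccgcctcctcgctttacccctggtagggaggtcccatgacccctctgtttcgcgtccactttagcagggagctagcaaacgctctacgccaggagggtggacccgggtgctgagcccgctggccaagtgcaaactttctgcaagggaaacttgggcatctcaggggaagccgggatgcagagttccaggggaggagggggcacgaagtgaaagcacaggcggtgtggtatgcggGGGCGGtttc
Sox11: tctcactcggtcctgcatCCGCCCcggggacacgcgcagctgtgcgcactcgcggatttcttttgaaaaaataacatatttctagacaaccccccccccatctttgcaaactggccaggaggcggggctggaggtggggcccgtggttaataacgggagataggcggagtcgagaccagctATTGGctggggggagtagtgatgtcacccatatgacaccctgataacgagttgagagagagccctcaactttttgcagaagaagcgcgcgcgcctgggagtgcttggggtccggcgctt
Utf1: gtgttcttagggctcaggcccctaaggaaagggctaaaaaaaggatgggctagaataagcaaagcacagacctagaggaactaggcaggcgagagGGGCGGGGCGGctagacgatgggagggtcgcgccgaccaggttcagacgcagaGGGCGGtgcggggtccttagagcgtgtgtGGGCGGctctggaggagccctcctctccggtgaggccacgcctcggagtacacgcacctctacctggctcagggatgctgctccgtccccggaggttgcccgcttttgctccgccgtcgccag

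The Zic2 promoter was 74.3% G or C, the Zic5 promoter 58.3%, the Sox11 promoter 58.0% and the Utf1 promoter 64.0%, against a median of 51.7% over 33469 RefSeq promoters of this length. Counting both strands, Zic2 and Utf1 each held 4 GC boxes, some of them overlapping, while Zic5 and Sox11 held 1 each. A GC box was present in 33.1% of the 33469 promoters. Sox11 also held 1 CCAAT box, a motif in 37.5% of promoters. The TATA box TATAAA (in 14.2% of promoters), the octamer ATGCAAAT (1.78%) and the SOX core ACAAAG (18.8%), or their reverse complements, were in none of the 4. A match describes the letters only, and is no evidence of binding.

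Zic2 (rn6 chromosome 15, 108908606 to 108912737) was lower in Kcnh2-/- within both replicate numbers, while the groups overlapped. It was at 4.42 and 15.1 RPKM in Kcnh2-/- replicates 1 and 2, against 7.66 and 23.0 RPKM in WT replicates 1 and 2. The replicate 2 libraries of both genotypes stood above the replicate 1 libraries of both. Group means were 9.78 ± 7.59 RPKM in Kcnh2-/- and 15.3 ± 10.8 RPKM in WT (SD, n = 2 each). The Kcnh2-/- level was 0.577 times that of WT within replicate 1 and 0.659 times within replicate 2. The pooled difference in log2(RPKM + 1) was -0.62 ± 0.76 (SE, 95% interval -2.64 to 1.39, limma adjusted p = 0.980), smaller than its own replicate differences of 1.58 in Kcnh2-/- and 1.47 in WT. Without Kcnh2-/- replicate 1 it was 0.16, and without WT replicate 2 it was 0.11.

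Zic5 (chromosome 15, 108891991 to 108898703) ends 9903 bp before the start of Zic2 in the coordinates of the files. It was at 4.70 and 11.1 RPKM in Kcnh2-/- replicates 1 and 2, against 4.36 and 18.9 RPKM in WT replicates 1 and 2. As with Zic2, both replicate 2 libraries were above both replicate 1 libraries, and the genotypes overlapped. The log2 difference was -0.32 ± 0.77 (SE, 95% interval -2.36 to 1.73, limma adjusted p = 0.981), at 0.090 within replicate 1 and -0.72 within replicate 2. It was 0.23 without Kcnh2-/- replicate 1 and 0.63 without WT replicate 2. The ratio of Zic5 to Zic2 was 1.06 and 0.732 in Kcnh2-/- replicates 1 and 2, and 0.569 and 0.823 in WT replicates 1 and 2. Across libraries this ratio varied less than the level of either gene.

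Sox11 (chromosome 6, 46629973 to 46631983) had the highest mean of the measured factors. It was at 41.6 and 34.0 RPKM in Kcnh2-/- replicates 1 and 2, against 72.4 and 28.9 RPKM in WT replicates 1 and 2. The WT libraries lay on either side of the Kcnh2-/- libraries. The log2 difference was -0.28 ± 0.50 (SE, 95% interval -1.59 to 1.04, limma adjusted p = 0.980), with -0.78 within replicate 1 and 0.23 within replicate 2. Without WT replicate 1, its highest library, the difference was 0.37.

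Utf1 (chromosome 1, 212281236 to 212282363) had nearly equal group means and the widest range as a ratio, 7.06-fold from its lowest to its highest library. It was at 22.1 and 32.5 RPKM in Kcnh2-/- replicates 1 and 2, against 6.69 and 47.2 RPKM in WT replicates 1 and 2. Here too the WT libraries lay outside the Kcnh2-/- libraries, but replicate 1 was the low one. Group means were 27.3 ± 7.36 RPKM in Kcnh2-/- and 27.0 ± 28.7 RPKM in WT (SD, n = 2 each). The log2 difference was 0.53 ± 0.93 (SE, 95% interval -1.93 to 2.98, limma adjusted p = 0.980), at 1.58 within replicate 1 and -0.53 within replicate 2, and it was -0.80 without WT replicate 1.

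Sall4 (chromosome 3, 165520391 to 165537940) had the largest pooled difference of the measured factors and rested on WT replicate 2. It was at 14.1 and 8.93 RPKM in Kcnh2-/- replicates 1 and 2, against 12.6 and 43.9 RPKM in WT replicates 1 and 2. WT replicate 2 stood apart from the other 3 libraries, and WT replicate 1 lay between the Kcnh2-/- libraries. The log2 difference was -1.02 ± 0.65 (SE, 95% interval -2.75 to 0.72, limma adjusted p = 0.980), at 0.15 within replicate 1 and -2.18 within replicate 2. Without WT replicate 2 it was -0.15.

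**Figure D1:**
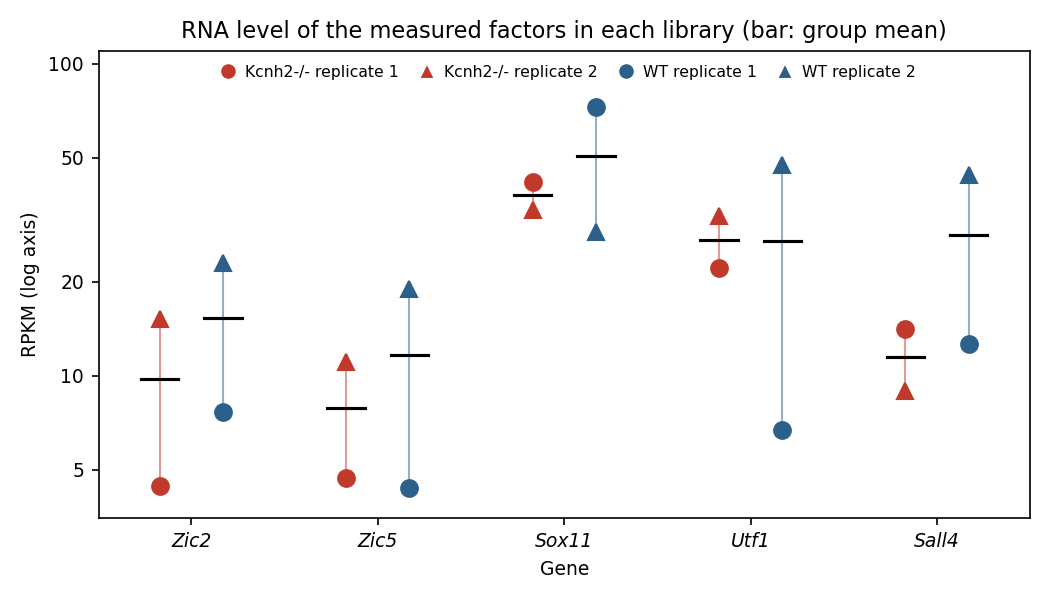
RPKM (log axis) of the 5 measured factors in each library, with Kcnh2-/- left of WT, circles for replicate 1, triangles for replicate 2 and a bar at the mean of each group. The genotypes overlap for all 5 genes, and as a ratio the WT libraries are farthest apart for Utf1, at 6.69 and 47.2 RPKM.

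None of the 5 measured factors was called between the genotypes. Limma called 14 of the 12355 genes tested (0.113%), of which 4 were higher (0.0324%) and 10 lower (0.0809%) in Kcnh2-/-. Quantile normalization gave 8 calls that were higher and 11 that were lower, and scaling by median ratios gave 1 and 10. At an unadjusted limma p under 0.05 there were 0 of the 5, against 3.38% of all genes tested. Complete separation of the groups was seen for 0 of the 5 and for 32.0% of all genes tested. With 2 libraries on each side, the smallest p that an exact two-sided permutation test can give is 0.333. The intervals above leave room for changes in either direction, so these values do not show that the genotypes have equal levels. Over the 5 genes the median log2 difference was -0.32, against 0.0052 over all genes tested. It was 0.090 within replicate 1 and -0.57 within replicate 2, against 0.0072 and 0.027 over all genes.

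Signs within the replicate numbers were opposite for Zic5, Sox11, Utf1 and Sall4, as they were for 40.6% of all genes tested. Zic2 alone was lower in Kcnh2-/- within both numbers, as were 28.1% of all genes tested, and 0 of the 5 were higher within both, as were 30.8%.

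**Figure D2:**
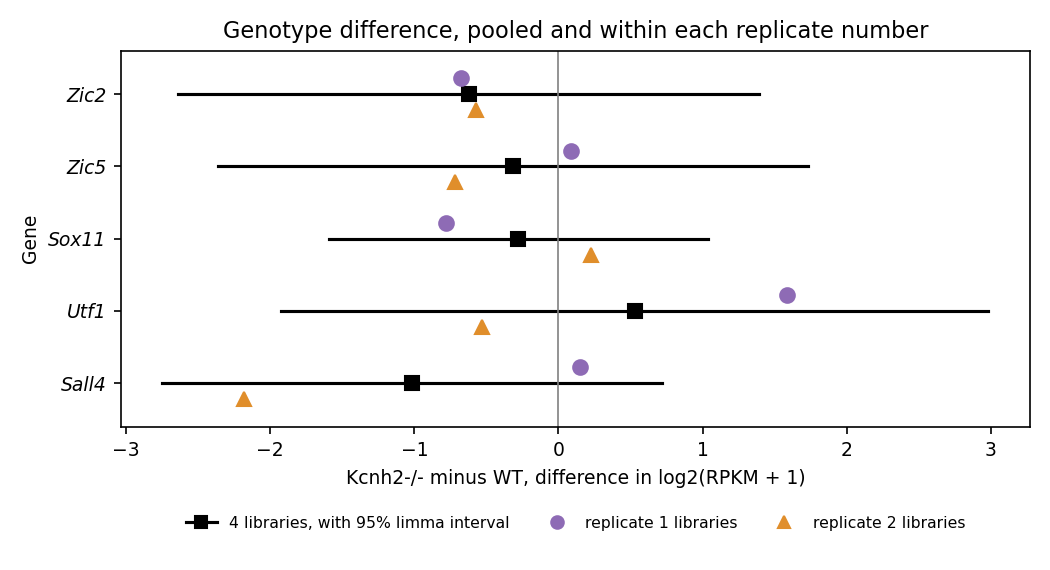
Kcnh2-/- minus WT difference in log2(RPKM + 1) for each measured factor, pooled over the 4 libraries (squares, with 95% limma intervals) and within the replicate 1 (circles) and replicate 2 (triangles) libraries. All 5 intervals cover 0, and for Sall4 the within-number values are 0.15 and -2.18.

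By level, the mean over the 4 libraries was 44.2 RPKM for Sox11, 27.1 for Utf1, 19.9 for Sall4, 12.6 for Zic2 and 9.77 for Zic5. Sox11 was above 79.7% of the protein-coding genes tested and Zic5 above 42.0%. Neighbours in this order overlapped over the 4 libraries. Sox11, whose lowest library was at 28.9 RPKM, lay above Zic2 and Zic5 in every library. In Kcnh2-/- the ranges of Sox11, Utf1 and Sall4 were separate, whereas in WT they overlapped.

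The spread between replicates was larger in WT than in Kcnh2-/- for Zic5, Sox11, Utf1 and Sall4. Replicate 2 minus replicate 1 on the log2(RPKM + 1) scale was 0.54 in Kcnh2-/- and 2.65 in WT for Utf1. For Sall4 it was -0.60 in Kcnh2-/- and 1.73 in WT. For Sox11 it was -0.28 in Kcnh2-/- and -1.30 in WT, and for Zic5 1.09 in Kcnh2-/- and 1.89 in WT. Zic2, Zic5 and Utf1 were thus higher in replicate 2 in both genotypes, as were 39.5% of all genes tested, and Sox11 was lower, as were 28.1%. Zic2 and Zic5 exceeded 1 log2 unit in both genotypes, which 4.78% of all genes tested did. In every measured factor the WT replicate difference was larger than the genotype difference. The 14 tested genes of the general and naive pluripotency list were all higher in replicate 2 in both genotypes.

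**Figure D3:**
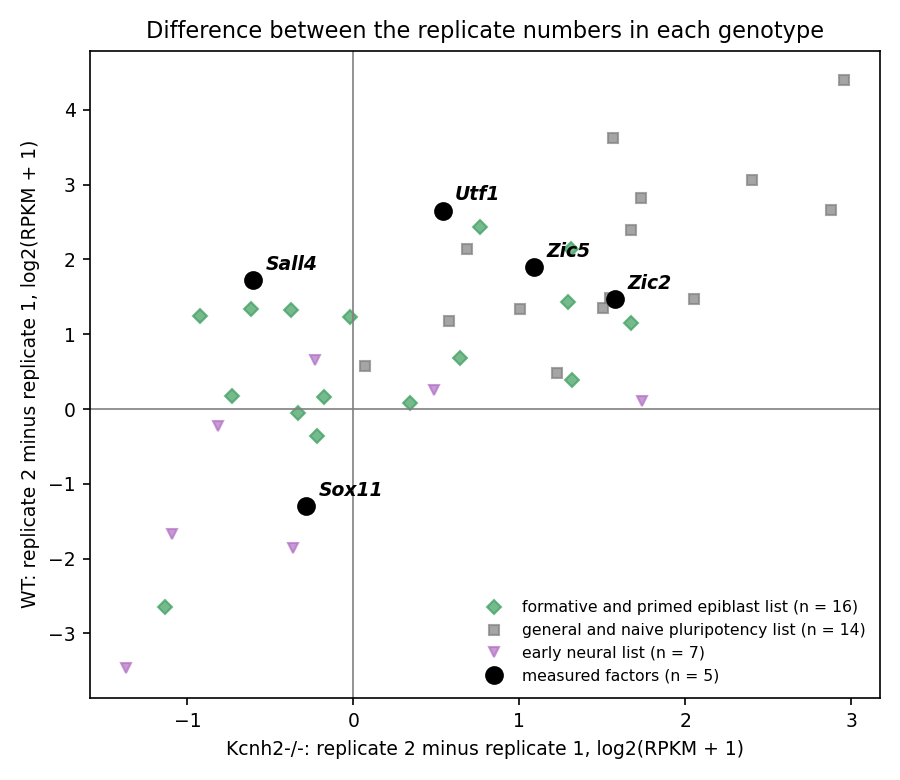
Replicate 2 minus replicate 1 in log2(RPKM + 1), in Kcnh2-/- (horizontal) and in WT (vertical), for the 5 measured factors (black circles) and the tested genes of 3 lists. Zic2, Zic5 and Utf1 lie in the upper right with the pluripotency list, Sox11 lies in the lower left, and Sall4 is at -0.60 in Kcnh2-/- and 1.73 in WT.

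Sall4 lies on chromosome 3, and the level of that chromosome as a whole differed between libraries. Over 595 other protein-coding genes of chromosome 3 at a mean of 5 RPKM or more, the log2 ratio of Kcnh2-/- over WT was centred on the median of autosomes and had a median of 0.023 within replicate 1 and -0.40 within replicate 2. Chromosomes 13 and 16 were shifted likewise within replicate 2, with medians of -0.46 and -0.48, while the autosomal medians within replicate 1 ran from -0.076 to 0.091. The same chromosome 3 median for replicate 2 over replicate 1 was -0.0005 in Kcnh2-/- and 0.35 in WT. Sall4 itself, on this scale without a pseudocount, was at 0.14 within replicate 1 and -2.37 within replicate 2. Of 41 other such genes within 5 Mb of Sall4, 0 had a lower ratio than Sall4 within replicate 2, where their median was -0.45. Within replicate 1, 23 of the 41 had a lower ratio. The part of the chromosome in the Sall4 difference was not tested. For Utf1, 42 of 43 neighbours had a lower ratio within replicate 1 (own value 1.71, median of neighbours 0.011), and 0 of 43 within replicate 2 (own value -0.61, median 0.29).

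**Figure D4:**
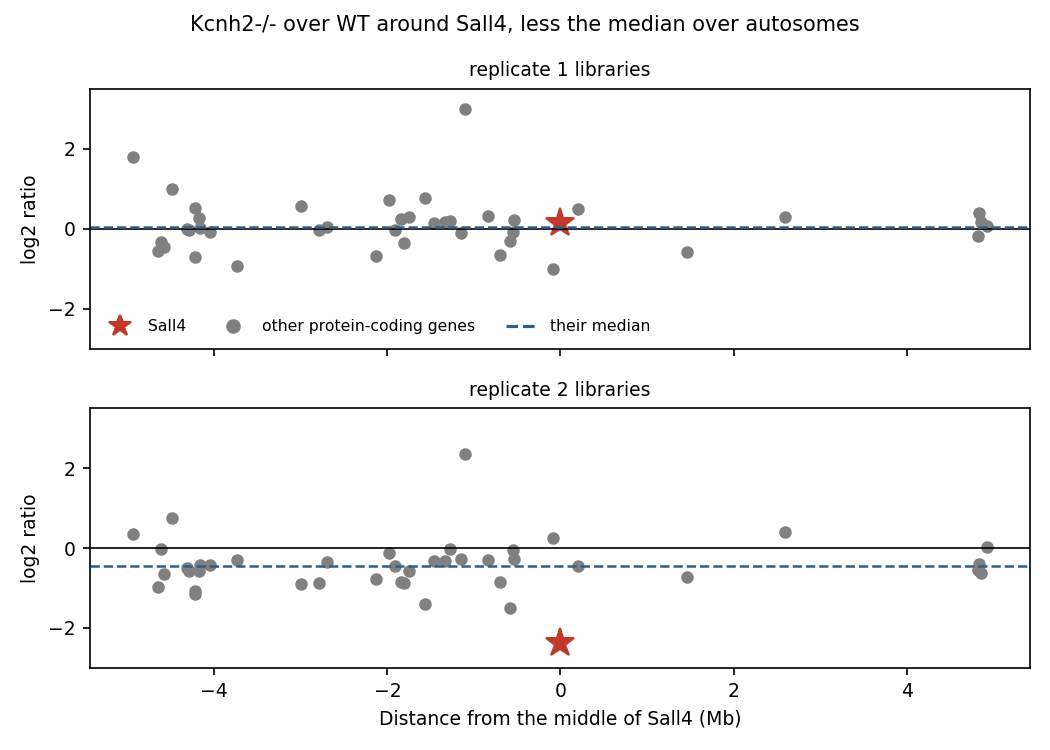
Log2 ratio of Kcnh2-/- over WT, centred on the median of autosomes, for Sall4 (star) and 41 other protein-coding genes (grey points) by distance from Sall4 in Mb, in the replicate 1 (top) and replicate 2 (bottom) libraries, with the median of the grey points dashed. Sall4 is within the grey points at replicate 1 and below all of them at replicate 2, at -2.37 against a median of -0.45.

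To describe likeness, the distance between 2 genes was taken over the 4 libraries after each gene's own mean was removed (Euclidean, log2(RPKM + 1)). Zic2 and Zic5 were each other's nearest among the measured factors, at a distance of 0.55. Utf1 was nearest to Zic5 at 1.07, and Sall4 to Zic5 at 1.39. Sox11 was the farthest from each of the other 4, and its nearest was Sall4 at 2.27. Among 65 tested genes of the lists, Zic2 was nearest to Tbx3 (0.36) and Prdm14 (0.39), and Zic5 to Prdm14 (0.49) and Klf4 (0.66). Sox11 was nearest to Ncam1 (0.40) and the neuronal tubulin gene Tubb3 (0.42). Utf1 was nearest to Tfap2c (0.56) and Etv5 (0.66), and Sall4 to Fgf8 (0.54) and Msi1 (0.81). With 4 libraries many genes share a profile, so these names only describe.

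Relatives of the measured factors, chosen after their values were seen, fell into expressed and near-silent genes. The SOXB1 gene Sox2 was at 18.1 and 43.8 RPKM in Kcnh2-/- and at 33.9 and 47.8 RPKM in WT. The SOXC gene Sox12 was at 10.98 and 17.7 RPKM in Kcnh2-/- and at 7.91 and 13.3 RPKM in WT. Sall1 was at 11.7 and 12.4 RPKM in Kcnh2-/- and at 17.0 and 25.8 RPKM in WT, and Sall2 at 39.5 and 16.3 RPKM in Kcnh2-/- and at 21.8 and 31.5 RPKM in WT. Otx1, Zic1, Zic4, Sall3, Pou3f2, Pou3f3 and Pou3f4 were under 1 RPKM in every library.

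Other genes of the formative and primed epiblast lay on both sides, with 11 of the tested genes higher and 5 lower in Kcnh2-/- by their log2 difference. Of 20 listed genes, 18 had a row and 16 were tested, and limma called 0 of them, with 0 at an unadjusted p under 0.05. Groups did not overlap for 3 that were higher (16.7% of all genes tested) and 2 that were lower (15.3%) in Kcnh2-/-, and the median log2 difference was 0.32, at 0.38 within replicate 1 and 0.064 within replicate 2. Tdgf1, a Nodal co-receptor gene, was at 240 and 409 RPKM in Kcnh2-/- and at 41.3 and 226 RPKM in WT. The methyltransferase gene Dnmt3b was at 1174 and 618 RPKM in Kcnh2-/- and at 430 and 1016 RPKM in WT. Tead2, of the Hippo pathway, was at 49.4 and 42.3 RPKM in Kcnh2-/- and at 83.7 and 64.9 RPKM in WT, and the RNA-binding protein gene Lin28a at 168 and 101 RPKM in Kcnh2-/- and at 196 and 220 RPKM in WT. Fgf5 and Otx1, the 2 with a row that were not tested, were under 1 RPKM in every library. Fgf5 was at 0 and 0 RPKM in Kcnh2-/- and at 0.423 and 0 RPKM in WT. WT replicate 1 was the lowest library for 10 of the 16 tested, as it was for Zic5 and Utf1 among the measured factors.

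In the general and naive pluripotency list, 14 of 18 genes were tested and 0 were called, with 0 at an unadjusted limma p under 0.05. The median log2 difference was 0.56, at 0.94 within replicate 1 and 0.21 within replicate 2. By their log2 difference, 8 of the tested genes were higher and 6 lower in Kcnh2-/-, with Sall1 and Sox2, given above, among the lower. The growth factor gene Fgf4 was at 19.4 and 39.8 RPKM in Kcnh2-/- and at 5.45 and 15.3 RPKM in WT. The naive factor gene Klf2 was at 9.27 and 31.7 RPKM in Kcnh2-/- and at 1.83 and 13.9 RPKM in WT, and Dppa3, a germ cell and naive marker, at 117 and 393 RPKM in Kcnh2-/- and at 26.1 and 191 RPKM in WT. WT replicate 1 was again the lowest library, for 10 of the 14.

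Early neural genes were mostly near 0 in both genotypes. Of 22 listed genes, 20 had a row, 12 of those were under 1 RPKM in every library (among them Pax6 and Olig2), and 7 were tested. By their log2 difference, 1 of the 7 was higher and 6 were lower in Kcnh2-/-. Groups did not overlap for 1 that was higher (16.7% of all genes tested) and 2 that were lower (15.3%). The median log2 difference was -0.36, at -0.79 within replicate 1 and -0.067 within replicate 2. Limma called 0 of the 7, with 1 at an unadjusted p under 0.05 (3.38% of all genes tested). That gene, also the only tested one that was higher, was Gbx2, a homeobox gene also active in pluripotent cells. It was at 9.42 and 13.6 RPKM in Kcnh2-/- and at 4.16 and 5.17 RPKM in WT. The anterior homeobox gene Hesx1 was at 1.26 and 0.286 RPKM in Kcnh2-/- and at 2.91 and 2.33 RPKM in WT. Msi1, an RNA-binding protein gene of neural progenitors, was at 4.14 and 3.39 RPKM in Kcnh2-/- and at 5.95 and 9.98 RPKM in WT.

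WT replicate 1, where Sox11 was highest and Utf1 lowest, also stood out for markers of other cell types. Summed over each list, WT replicate 1 was the highest library for early neural, neuronal, neural crest, primitive streak, definitive endoderm, extraembryonic endoderm, cardiomyocyte and trophoblast genes, as it was for Sox11. The order of the other 3 libraries did not follow Sox11 or Utf1: WT replicate 2, with the lowest Sox11 and the highest Utf1, was the next highest for neural crest, primitive streak and definitive endoderm genes. The trophoblast sum was mostly Krt8 in the replicate 1 libraries and mostly Krt18 in the replicate 2 libraries. Krt8 was at 531 and 53.1 RPKM in Kcnh2-/- and at 1567 and 175 RPKM in WT. Krt18 was at 253 and 255 RPKM in Kcnh2-/- and at 314 and 230 RPKM in WT. Among the 4 trophoblast genes tested, WT replicate 1 was the highest library for 2 and the lowest for 1, Tfap2c. Tfap2c was at 13.9 and 20.4 RPKM in Kcnh2-/- and at 2.26 and 20.9 RPKM in WT. Cardiomyocyte genes summed to 74.9 and 8.61 RPKM in Kcnh2-/- replicates 1 and 2 and to 678 and 43.4 RPKM in WT replicates 1 and 2. Most of each sum was Actc1 and Tnnc1, at 310 and 349 RPKM in that order in WT replicate 1. Nkx2-5 and Myh6 were under 1 RPKM in every library. Definitive endoderm genes summed to 43.1 and 4.07 RPKM in Kcnh2-/- and to 178 and 52.0 RPKM in WT. Neuronal genes summed to 36.6 and 35.0 RPKM in Kcnh2-/- and to 99.2 and 21.7 RPKM in WT, mostly from Tubb3 and Stmn2, and neural crest genes to 6.49 and 7.27 RPKM in Kcnh2-/- and to 22.1 and 9.65 RPKM in WT. No listed gene with a row was at 0 in all 4 libraries, and 5 of the 8 neural crest genes were under 1 RPKM in every one. The part of these cell types in the levels of Sox11 and Utf1 was not tested.

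**Figure D5:**
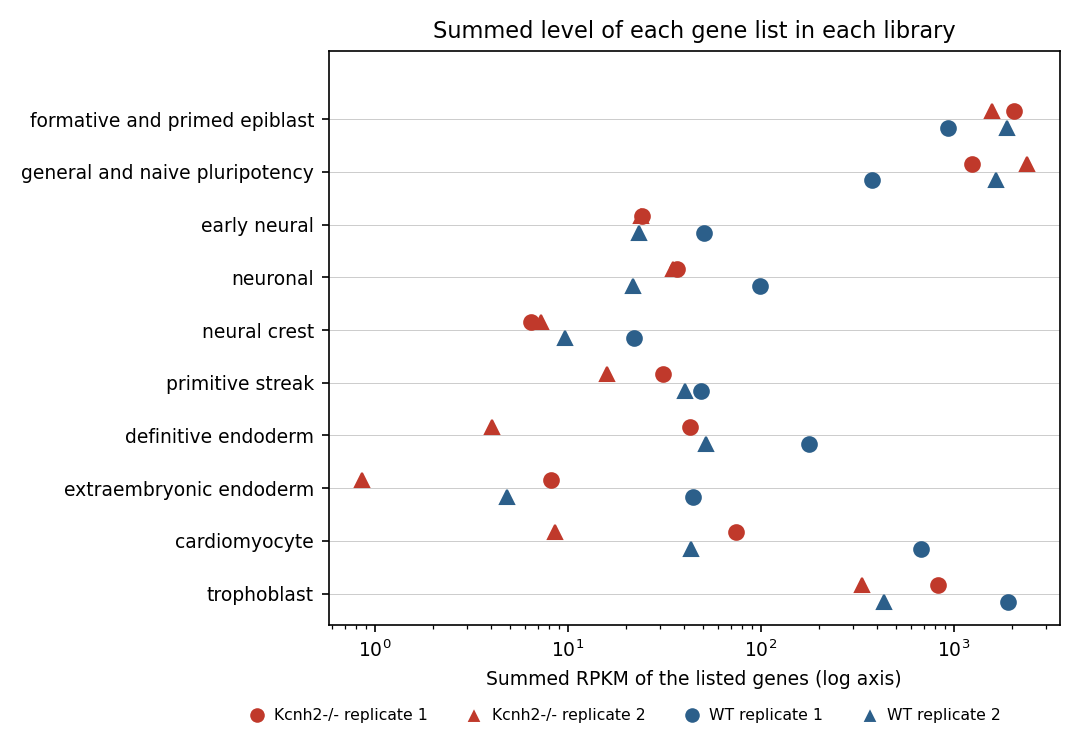
Summed RPKM (log axis) of each gene list in each library, Kcnh2-/- above WT, with circles for replicate 1 and triangles for replicate 2. WT replicate 1 is the lowest library for the epiblast and pluripotency lists and the highest for the other 8. For example, it is at 678 RPKM for cardiomyocyte genes, mostly from Actc1 and Tnnc1.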

How the data were processed

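The deposited tables, 1 per library, hold RPKM per gene as made by the authors with TopHat2 2.0.13 and Cufflinks 2.2.1 on rn6, per the submitters' processing notes. The annotation and strand setting are not given in the sources used here. Coordinates are those of the files. Over genes under 0.08 RPKM, 30.4% to 34.8% of ratios between libraries of 1 replicate number lay within 1 bin of 0.01 of the most common ratio, and 11.5% to 14.5% between numbers, so whole reads could not be recovered, absolute depth is unknown and no count test was run.

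Log2(RPKM + 1) values, which understate changes of low genes, were compared by a two-sided limma test with a mean-variance trend (limma 3.58.1 under R 4.3.3). Genes that reached 1 RPKM in at least 2 libraries entered, 12355 in all, with Benjamini-Hochberg adjustment over all of them and a threshold of 0.05. All 5 members above 0 passed. The fit was tested on simulated data. Protein-coding genes were matched by symbol in a RefSeq table (GRCr8, names only). The members and lists were chosen with earlier results of these data known, so lists are described by counts and medians. Values are printed for the genes of the epiblast, pluripotency and early neural lists with the 3 smallest p or the 2 highest means. The lists of other cell types are given as sums, with a few of their genes named where a sum rested on them or they differed from it. Alternatives covered 14 settings. Plots were drawn with matplotlib 3.10.9.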

Additional observations from a re-analysis of the deposited data

How the results depend on the processing

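The 5 members stayed uncalled under all 14 alternatives, and the lowest adjusted p was 0.460, for Sall4 over protein-coding genes alone with a replicate block. Under the 10 alternatives that kept all 4 libraries, all 50 log2 differences kept their direction. The filter, trend, block and protein-coding settings could not change a direction, because they leave the difference itself as it was. Only the pseudocount, median-ratio and quantile settings could move it. Leaving out 1 library in turn reversed 6 of 20: over those fits the differences ran from -1.41 to 0.16 for Zic2, -1.26 to 0.63 for Zic5, -0.93 to 0.37 for Sox11, -0.80 to 1.85 for Utf1 and -1.88 to -0.15 for Sall4. The member median ran from -1.26 (without WT replicate 1) to 0.16, and in each such fit the lone library is assumed to vary like the other group. Over all genes the 14 calls became 3 with a pseudocount of 5, 3 with no trend, 1 with no filter, 3 over protein-coding genes alone, and 10 to 16 with a library left out. With a replicate block there were 28 calls (14 higher, 14 lower), and 81 over protein-coding genes with the block (57 higher, 24 lower), in neither case a member. The cause was not tested. Libraries of 1 number deviated together (r = 0.38 across 12355 genes and 0.58 across 10845 protein-coding genes, which are not independent), but the labels do not pair them. Unknown depth and 2 libraries per group limit what can be seen: the widest interval, for Utf1, covered -1.93 to 2.98.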
